A study of Aliger gigas with 7 samples.

Results

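Ovaries of 4 queen conchs from Pelican Shoal, an offshore site in the Florida Keys where conchs reproduce normally, were described by the level of every gene title on the array and by how far the animals differed. The queen conch is a large marine snail. The 4 animals, OF1 to OF4, were all the samples of the series with the offshore location label, 4 of 7 in all. They were wild, mature adult females labelled normal females, they received no treatment, and 1 array stands for 1 animal. All came from 1 place on 1 day, and the sources used here give no reproductive stage for the ovaries. Total RNA of each ovary was labelled with the dye Cy3 and hybridised to single-colour oligonucleotide arrays. The other samples of the series, all nearshore, entered no value given here.

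Each value is a log2 signal for 1 gene title, the protein or gene name that the authors attached to conch sequence. A title therefore stands for the best match of a conch sequence, without proof of orthology, and roles given below are those known for the named proteins, mostly in vertebrates or insects. Different titles stand for different probes, so a rank by signal is a rank of array brightness and not of mRNA amount. Without detection calls, a dim value cannot be told from background, nor a saturated one from a bright one. A difference between animals compares the same title on each array. In such whole-tissue RNA, fewer cells of a type and less RNA per cell cannot be told apart. With 1 group, no test was made, and SDs are over the 4 animals.

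A growing oocyte takes up yolk protein, chiefly vitellogenin, and stores ribosomes, mitochondria and maternal mRNA for the embryo. Germ cells carry their own RNA regulators, such as Piwi proteins, which hold mobile elements in check with small RNAs. Oocytes also hold the M phase machinery, built around cyclin B and its kinase, with which meiosis is resumed. In snails of this kind the gonad lies against the digestive gland, an organ rich in hydrolases, absorptive cells and detoxifying enzymes.

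The table held 4328 titles, of which 4321 had all 4 values and 7 lacked 1. Title means ran between 0.86 and 17.07, with a median of 5.14 and quartiles at 2.64 and 8.44. A mean of 10 or more was reached by 680 titles (15.7%), and 691 (15.97%) stayed under 2. The array means were nearly equal, between 5.885 in OF2 and 5.889 in OF1. The median title had an SD of 0.44 and a range, the highest minus the lowest of the 4 values, of 0.98. In 2237 titles (51.7%) the range was under 1, less than a doubling between the extreme animals. Across titles, Pearson's r between animals lay between 0.954 (OF1 and OF4) and 0.975 (OF1 and OF3). These correlations are over titles of widely different brightness on the same array design, and titles are not independent replicates.

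The spread depended on brightness. Titles were split by mean into 10 bins of nearly equal size. In the dimmest bin, with means up to 1.56, the median SD was 0.18, and values sat close to the bottom of the scale. It was highest, 0.68, in the third bin, with means between 2.29 and 3.03, and 0.26 in the brightest bin. Apart from the dimmest bin, the brightest bin had the lowest median SD, so a given difference stands further outside the usual spread of a title there than in the bins between.

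**Figure D1:**
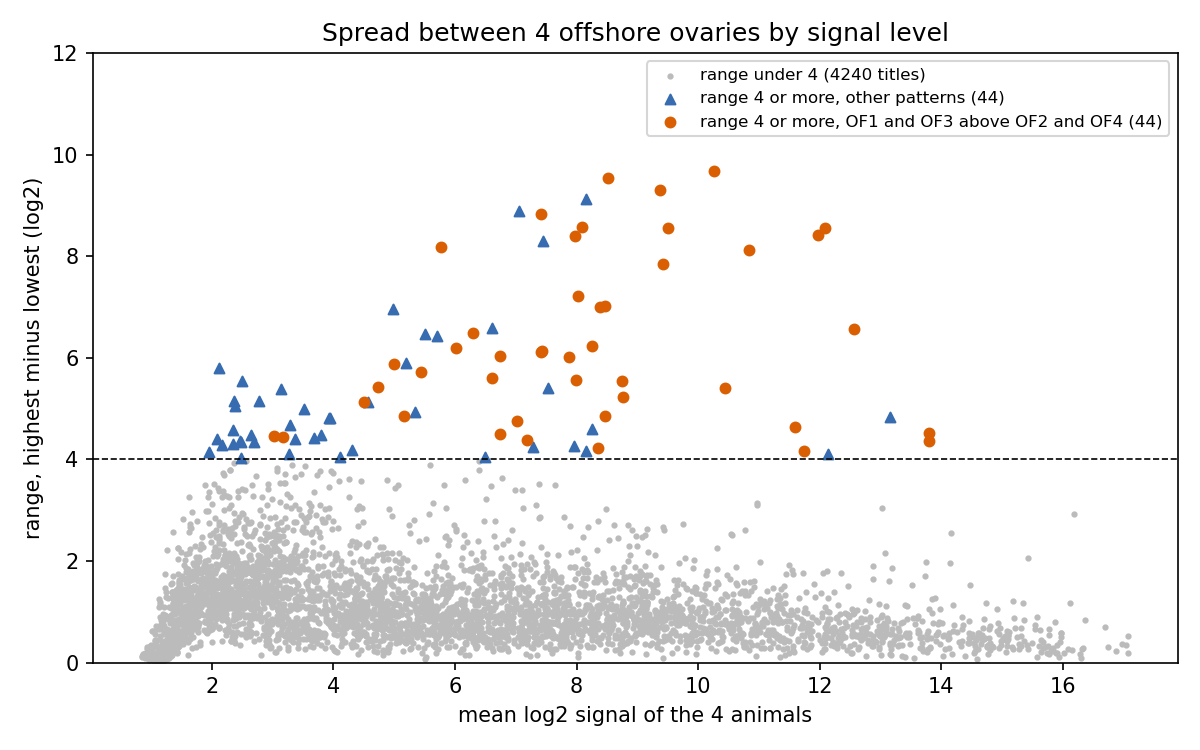
Range between the 4 offshore animals (highest minus lowest log2 value, vertical axis) against mean log2 signal (horizontal axis), 1 point per title. Most bright titles lie under 1, while 88 titles lie at or above the dashed line at 4, and those in which OF1 and OF3 are above OF2 and OF4 (circles) reach means above 13.

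The brightest title was Vitellogenin 2, the yolk precursor protein, with 17.34 (OF1), 17.08 (OF2), 16.81 (OF3) and 17.06 (OF4). Collectin Sub-family Member 11, a soluble lectin that in vertebrates binds sugars on microbes, was next, with 17.16 (OF1), 17.02 (OF2), 16.96 (OF3) and 17.14 (OF4). The 4 animals thus differed by 0.52 and 0.20 in these titles. Putative MRNA Decapping And Decay Factor, a title for mRNA turnover, averaged 17.04 ± 0.18 (SD, n = 4, as in all means below). Similar To Elongation Factor 1-gamma, a subunit of the complex that recharges the factor bringing aminoacyl-tRNA to the ribosome, averaged 16.98 ± 0.17. Cytoskeletal Actin IIIa and Thymosin, Beta 10, which binds actin monomers, followed at 16.74 ± 0.14 and 16.69 ± 0.29. NADH Dehydrogenase Subunit 4, encoded in the mitochondrial genome, averaged 16.36 ± 0.36. Deoxyhypusine Synthase, which makes the modified amino acid of initiation factor 5A, averaged 15.83 ± 0.13.

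Of the 30 brightest titles, 16 were cytosolic ribosomal proteins, 2 were translation factors, and 3 had names that identify no protein. Ribosomal proteins made up 30 of the top 60 and 45 of the top 100. Ribosomal Protein L6 led them, with 16.87 (OF1), 16.96 (OF2), 16.73 (OF3) and 16.93 (OF4). The brightest set was also a close one between animals, with a median SD of 0.13, and 2 of the 30 had a range of 1 or more. One was C-type Lectin Domain Family 4, Member A, a sugar-binding protein, with 17.08 (OF1), 16.61 (OF2), 16.89 (OF3) and 14.17 (OF4), so that OF4 alone was low. The other was Cysteine Rich Transmembrane BMP Regulator 1, a membrane protein that in vertebrates binds bone morphogenetic proteins, with 15.63 (OF1), 16.76 (OF2), 15.59 (OF3) and 16.47 (OF4), high in OF2 and OF4.

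**Figure D2:**
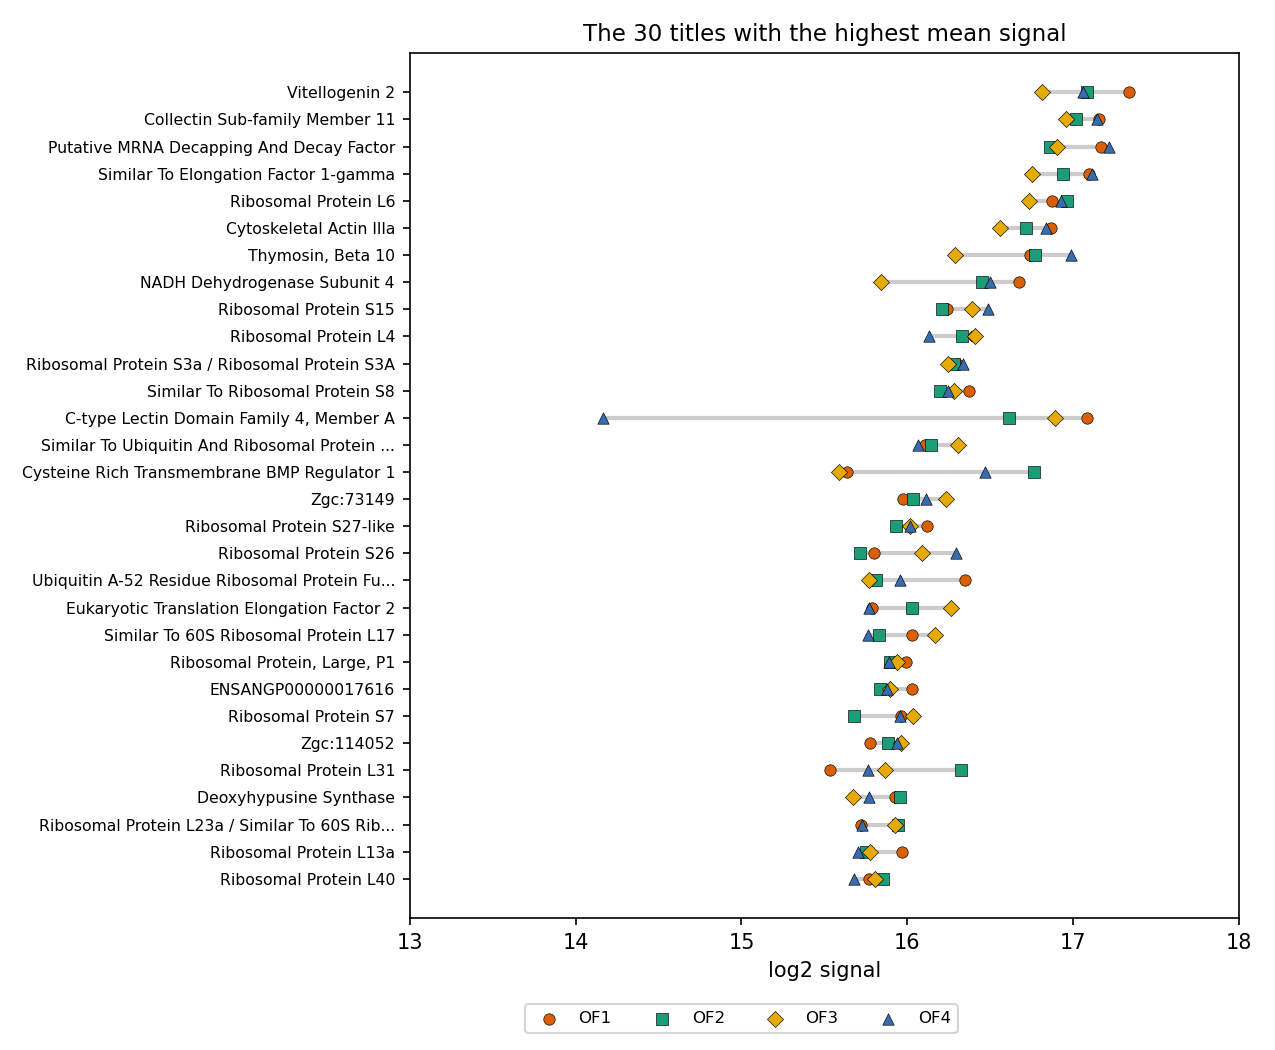
Log2 signal (horizontal axis) of the 30 titles with the highest mean, 1 symbol per offshore animal and a grey bar over their range. In 22 titles the range is under 0.5, and the long bar is C-type Lectin Domain Family 4, Member A, at 14.17 in OF4 and at 16.61 or more in the other animals.

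Ranked in each animal alone, 17 titles were among the 30 brightest of all 4 animals, and 46 were among the 30 of at least 1. Kallikrein B, Plasma 1, named for a serine protease of blood plasma, ranked 18 (OF1), 1036 (OF2), 54 (OF3) and 1318 (OF4). Low-density Lipoprotein Receptor Related, named for a family of endocytic receptors that includes yolk receptors, ranked 11 (OF1), 977 (OF2), 68 (OF3) and 1285 (OF4). Similar To Cathepsin L Precursor, a lysosomal or secreted cysteine protease, ranked 28 (OF1), 349 (OF2), 43 (OF3) and 428 (OF4). The rank of these titles in the ovary thus depended on the animal, in contrast to Vitellogenin 2, among the 30 in every animal.

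Levels were then described by 22 lists of titles matched by name, each set beside the median of all titles, 5.14. The 81 cytosolic ribosomal protein titles had the highest median, 14.84, and 67 of them lay above the upper quartile of all titles. The others reached down to 0.94, among them Ribosomal Protein L2 at 3.07 ± 1.60 and 50S Ribosomal Protein L18 at 2.21 ± 1.45, a name used for bacterial and organelle ribosomes. The 46 translation factors had a median of 9.01. Eukaryotic Translation Elongation Factor 2, which moves the ribosome along the mRNA, averaged 15.96 ± 0.23. Eukaryotic Translation Initiation Factor 4E Binding Protein 1, a repressor of cap-dependent initiation, averaged 15.07 ± 0.10. Splicing and RNA-binding titles (37, median 10.07) were led by Heterogeneous Nuclear Ribonucleoprotein L at 14.76 ± 0.082 and Small Nuclear Ribonucleoprotein Polypeptide G, a core spliceosome protein, at 13.78 ± 0.28.

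Oxidative phosphorylation, the respiratory chain with ATP synthase, followed with 86 titles and a median of 11.66. Beside subunit 4 of complex I, NADH Dehydrogenase Subunit 1 averaged 15.77 ± 0.29 and Mitochondrial ATP Synthase Alpha Subunit 15.28 ± 0.12. Nuclear-encoded subunits were among the steadiest bright titles. Of the 12 named titles with the smallest SDs among those above the upper quartile, 7 belonged to this list, and another was Cytochrome C-1, a subunit of complex III (0.053). The list held 57 of the 1082 titles above that quartile, counting titles whose names identify no protein. NADH Dehydrogenase 1 Alpha Subcomplex, 4 had 14.61 (OF1), 14.55 (OF2), 14.57 (OF3) and 14.63 (OF4). Cytochrome C Oxidase Subunit Vb had 13.55 (OF1), 13.60 (OF2), 13.53 (OF3) and 13.50 (OF4). Their ranges were 0.077 and 0.098. The 12 also held Ribosomal Protein S3a / Ribosomal Protein S3A, with the smallest SD (0.036), and Ribosomal Protein, Large, P1 (0.048). Biogenesis Of Lysosome-related Organelles Complex-1, Subunit 2 had the largest SD of the 12 (0.071). These titles were chosen for their small SDs, which are given as a description.

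The tissue label was checked against ovary and germ cell markers. Besides Vitellogenin 2, Piwi-like 1, a germline protein that binds small RNAs against mobile elements, had 14.19 (OF1), 15.06 (OF2), 14.57 (OF3) and 14.97 (OF4). Bol, Boule-like, which binds RNA in meiotic germ cells, had 9.85 (OF1), 10.46 (OF2), 9.45 (OF3) and 9.77 (OF4). Both were well above the median of all titles in every animal. Mago-nashi Homolog, part of the complex left at exon junctions after splicing, averaged 13.08 ± 0.27, and Bicaudal C Homolog 1, an RNA-binding regulator named for its role in fly oogenesis, 6.62 ± 0.51. The 11 egg yolk and egg envelope titles, most of them for lipoprotein receptors, had a median of 4.85, so that the level of Vitellogenin 2 was not shared by its list. Titles for mobile elements were dim, with a median of 2.69 over 23. The brightest, Pol Protein, averaged 9.08 ± 1.13.

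Titles of the cell division machinery were of middle brightness. The 41 M phase and meiosis titles had a median of 6.78. None had a range of 4 or more, against 2.03% of all titles, a share too low to differ visibly from none in a list this short. Cyclin B1, the regulatory subunit of the M phase kinase, had 9.75 (OF1), 8.94 (OF2), 9.80 (OF3) and 10.50 (OF4), and Cyclin B2 averaged 9.26 ± 0.57. Cell Division Cycle 2, the kinase that B cyclins activate, averaged 7.53 ± 0.44. Subunits 13, 5 and 10 of the anaphase promoting complex, the ubiquitin ligase that ends M phase, averaged 10.33 ± 0.30, 10.12 ± 0.28 and 10.11 ± 0.44. OF4 was the highest animal for each of these 3 and for both B cyclins, though in subunit 13 by 10.61 against 10.57 in OF2. The highest animal was not counted over the list. The median level of the 41 titles was highest in OF1, at 6.70, against 6.37 in OF4. Synaptonemal Complex Protein 3, a protein of the chromosome axes in meiotic prophase, averaged 7.24 ± 0.52. The title for SPO11, which cuts DNA to start meiotic recombination, had 4.32 (OF1), 6.71 (OF2), 5.98 (OF3) and 4.62 (OF4). In the 18 DNA replication titles (median 7.24), Replication Factor C 2, 40kDa, a subunit of the clamp loader, averaged 11.21 ± 0.37, and Ribonucleotide Reductase M2 Polypeptide, which makes deoxynucleotides, 10.85 ± 0.68. The histone and chromatin list (29 titles, median 7.69) was led by the variant histone H2A Histone Family, Member V, at 14.80 ± 0.30. Histone1, H3d had 12.87 (OF1), 12.29 (OF2), 12.22 (OF3) and 14.13 (OF4), highest in OF4.

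Protein turnover and folding were spread over the scale. The 35 proteasome titles had a median of 8.43, led by Similar To Proteasome 26S Non-ATPase Subunit 1 at 14.67 ± 0.20, against 4.12 for 67 ubiquitin and F-box titles. Ubiquitin-activating Enzyme E1, the first enzyme of that pathway, was at 13.31 ± 0.23. Among 70 chaperone titles (median 6.59), Protein Disulfide Isomerase Family A, Member 3, which forms disulfide bonds in the endoplasmic reticulum, averaged 15.24 ± 0.27 and Heat Shock Protein 70 15.01 ± 0.20. Heat Shock Protein 1 had 6.31 (OF1), 9.24 (OF2), 5.60 (OF3) and 5.94 (OF4), high in OF2 alone. Among 52 antioxidant titles (median 5.76), Similar To Peroxiredoxin 1, which reduces hydrogen peroxide, averaged 14.68 ± 0.28. Catalase, an enzyme with the same substrate, had 6.36 (OF1), 3.62 (OF2), 5.01 (OF3) and 2.79 (OF4).

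Steroid and xenobiotic titles (42) had a median of 4.46. Sulfotransferase, Estrogen-preferring, which in vertebrates adds sulfate to estrogens, averaged 11.91 ± 0.64, with OF1 highest at 12.77. Cytochrome P450, Subfamily XVII, named for the vertebrate enzyme on the way to androgens, averaged 10.46 ± 0.38, and Hydroxysteroid Dehydrogenase 12 9.80 ± 0.098. The hydroxysteroid dehydrogenase differed by no more than 0.20 between animals, against 1.55 for the sulfotransferase. Cytochrome P450, Family 1, Subfamily A, whose vertebrate namesake is induced by aromatic pollutants, had 0.97 (OF1), 0.75 (OF2), 0.80 (OF3) and 3.58 (OF4), near the bottom of the scale in every animal but OF4.

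Lists named for other cell types held both bright and dim titles. Of the 44 sperm, testis and cilium titles (median 3.47), 12 lay above the median of all titles. The brightest, Nuclear Autoantigenic Sperm Protein at 12.42 ± 0.45, is a histone chaperone that dividing cells of many kinds also use. Sperm Associated Antigen 6, a protein of the axoneme, the core of cilia and sperm tails, averaged 8.26 ± 0.52. Among the axonemal dyneins, the motors of that core, the means above the median were those of Light Polypeptide 4 (7.12 ± 0.27), Intermediate Polypeptide 2 (6.81 ± 0.17) and Light Intermediate Polypeptide 1 (6.02 ± 0.34). The heavy chain titles all lay below it, the brightest, Dynein, Axonemal, Heavy Polypeptide 10, at 4.39 ± 0.28. Tektin A1, which stiffens axonemes, averaged 3.35 ± 0.30 and Tektin 2 1.07 ± 0.064. Of 14 nerve titles (median 4.34), 7 lay above the median of all. The brightest, GABA(A) Receptor-associated Protein at 14.36 ± 0.32, is known for its part in autophagy. Synaptojanin 2 Binding Protein averaged 6.76 ± 0.24, and Similar To Synaptotagmin-1, a calcium sensor of synaptic vesicles, 3.39 ± 0.52. Of 34 actin and muscle titles (median 5.41), 18 were above the median of all, among them cytoskeletal actins. Myosin, Light Polypeptide 9, Regulatory, a light chain of smooth muscle and non-muscle myosin, averaged 10.67 ± 0.46, Tropomyosin 1 7.52 ± 0.98 and Myosin Heavy Chain 3.16 ± 0.77. In the 15 matrix titles (median 5.81, 8 above that of all), Collagen, Type VI, Alpha 3 was bright and steady at 14.94 ± 0.13. The basement membrane title Procollagen, Type IV, Alpha 1 / Collagen, Type IV, Alpha 1 had 6.96 (OF1), 8.95 (OF2), 6.999 (OF3) and 7.07 (OF4), with OF2 above the rest. The chains of type I collagen averaged 12.52 ± 0.49 (Alpha 1) and 2.51 ± 1.29 (Alpha 2).

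**Figure D3:**
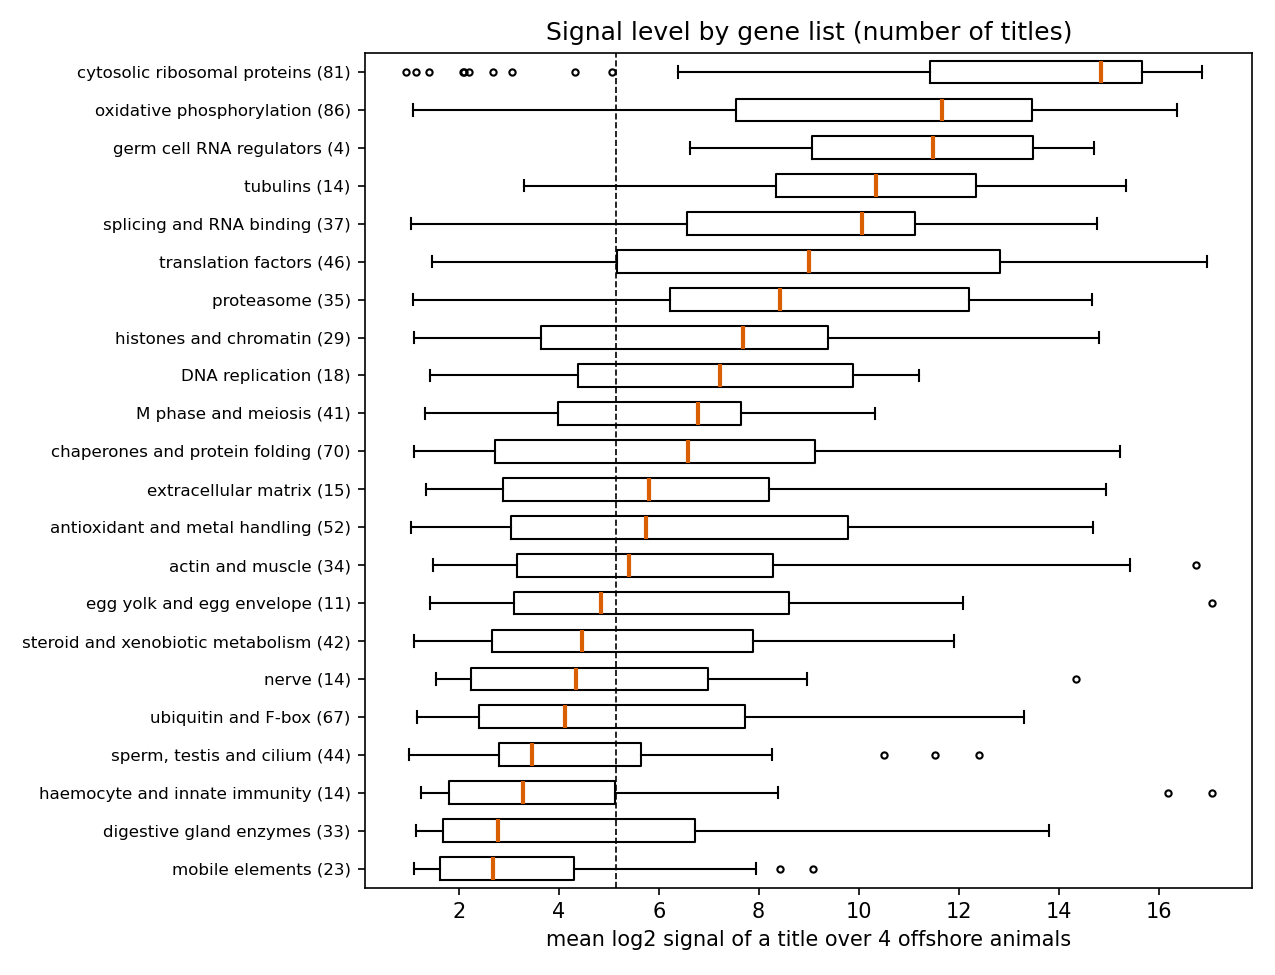
Mean log2 signal over the 4 offshore animals of the titles in each gene list (horizontal axis), with lists ordered by median. Boxes span the quartiles with the median as a coloured line, whiskers reach the last title within 1.5 times the box length, circles are single titles, and the dashed line is the median of all titles, 5.14. Cytosolic ribosomal proteins lie highest, and digestive gland enzymes and mobile elements lowest.

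The range was 4 or more, a 16-fold difference or larger between the extreme animals, in 88 titles (2.03% of all). Their mean was above the median of all titles in 55 and below it in 33, and in 31 of them the lowest value was under 2, near the bottom of the scale. The widest range was 9.68. The threshold cut through a continuous series. Just inside lay Similar To LSM3 Homolog, U6 Small Nuclear RNA Associated (4.05), Zinc Finger Protein 710 (4.05) and Similar To Bromodomain And WD Repeat Domain Containing 2 (4.03). Just outside lay Similar To Cell Division Cycle 91-like 1 Protein (3.97), Similar To Membrane Transporter Like (3.93) and Coagulation Factor V (3.89). OF1 was the highest animal in 55 of the 88 and OF4 the lowest in 50. Without OF4, 56 titles had a range of 4 or more over the other 3 animals, and without OF1, 61.

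The wide titles were sorted by where the largest gap between neighbouring values lay. It set 1 animal above the rest in 27 titles, 1 animal below the rest in 10, and a pair above a pair in 51. In 44 of these 51, OF1 and OF3 were above OF2 and OF4, which is 50% of all wide titles and includes 15 of the 20 widest. Each of the other 5 ways to pair the animals occurred in at most 3 wide titles. Over all titles of any range, a middle gap of 2 or more set OF1 and OF3 above OF2 and OF4 in 46 titles, and any other pair above the rest in at most 4. The order within the pairs also recurred, OF1 being above OF3 in 40 of the 44 and OF4 below OF2 in 37. Their median level was 11.26 (OF1), 5.70 (OF2), 10.12 (OF3) and 4.80 (OF4). In 17 of them OF2 and OF4 were both still above the median of all titles, so that the low animals were not near the bottom of the scale there.

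By the proteins they name, 7 of the 44 were peptidases, 3 carbohydrate hydrolases and 5 lipid or phosphodiester enzymes and carriers. A further 3 were members of the LDL receptor family, 5 recognition or complement-like proteins, and 4 glutathione transferases or sorbitol dehydrogenases. Another 4 were other proteins, and 13 had names that identify no protein. Iduronate 2-sulfatase, a sulfatase, was counted with the carbohydrate hydrolases. Roles were assigned to these titles alone, so no share of a role over all titles stands beside the counts. Among the peptidases, Elastase 2B, a digestive serine protease in vertebrates, had 13.32 (OF1), 4.69 (OF2), 12.25 (OF3) and 3.78 (OF4). Cathepsin L had 15.66 (OF1), 10.14 (OF2), 15.33 (OF3) and 9.09 (OF4). OF2 and OF4 were thus more than 5 log2 units below OF1 and OF3 for both. Kallikrein B, Plasma 1 had 16.13 (OF1), 8.65 (OF2), 15.36 (OF3) and 7.71 (OF4), and Similar To Cathepsin L Precursor, the brightest of the group, 15.90 (OF1), 12.17 (OF2), 15.60 (OF3) and 11.54 (OF4). Cathepsin F and Cathepsin H, cysteine proteases of lysosomes, had ranges of 6.24 and 5.54.

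Of the carbohydrate hydrolases, Amylase, Alpha 1A; Salivary, which digests starch, had 14.12 (OF1), 5.83 (OF2), 12.70 (OF3) and 4.81 (OF4). Chitinase 1, which cleaves chitin, had 7.17 (OF1), 2.69 (OF2), 6.13 (OF3) and 2.03 (OF4). The gap between OF3 and OF2 was 6.87 for the amylase and 3.43 for the chitinase. Similar To Pancreatic Triglyceride Lipase, a fat-digesting enzyme in vertebrates, had 9.74 (OF1), 4.55 (OF2), 8.93 (OF3) and 3.71 (OF4). N-acylsphingosine Amidohydrolase-like, which splits ceramide, had 11.87 (OF1), 5.26 (OF2), 10.32 (OF3) and 4.65 (OF4). Both lipid enzymes again kept the 4 animals in the order OF1, OF3, OF2, OF4. Niemann Pick Type C2, which carries cholesterol out of lysosomes, had 4.29 (OF1), 1.28 (OF2), 5.49 (OF3) and 1.03 (OF4), with OF2 and OF4 near the bottom of the scale.

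The LDL receptor family comprises large endocytic receptors, some of which take up yolk proteins in egg-laying animals. Low Density Lipoprotein-related Protein 1, the title with the widest range of all, had 15.09 (OF1), 7.02 (OF2), 13.53 (OF3) and 5.41 (OF4). Low-density Lipoprotein Receptor Related had 16.43 (OF1), 8.85 (OF2), 15.20 (OF3) and 7.87 (OF4). Vitellogenin 2 itself had a range of 0.52 in the same animals, and Low Density Lipoprotein Receptor-related Protein 4 of 0.58, so the pattern was not one of all titles for yolk or its receptor family. C-type Lectin Domain Family 10, Member A, a sugar-binding receptor, had 12.09 (OF1), 5.08 (OF2), 11.08 (OF3) and 5.29 (OF4). Thiolester Containing Protein II, named for an insect protein of the complement C3 family, had 14.02 (OF1), 9.85 (OF2), 13.18 (OF3) and 9.91 (OF4). OF2 and OF4 were nearly equal in both of these recognition titles. Glutathione S-Transferase, which conjugates glutathione to reactive compounds, had 12.85 (OF1), 5.05 (OF2), 9.51 (OF3) and 4.45 (OF4), and Sorbitol Dehydrogenase, which oxidises sorbitol to fructose, 13.19 (OF1), 7.79 (OF2), 12.77 (OF3) and 8.03 (OF4). OF2 and OF4 were the low animals in both. Other titles for these enzymes were unlike them. The 4 titles named glutathione S-transferase had means between 7.97 and 13.79. Another of them had 14.15 (OF1), 13.23 (OF2), 13.73 (OF3) and 13.32 (OF4), a range of 0.92. A second title for sorbitol dehydrogenase averaged 1.22.

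**Figure D4:**
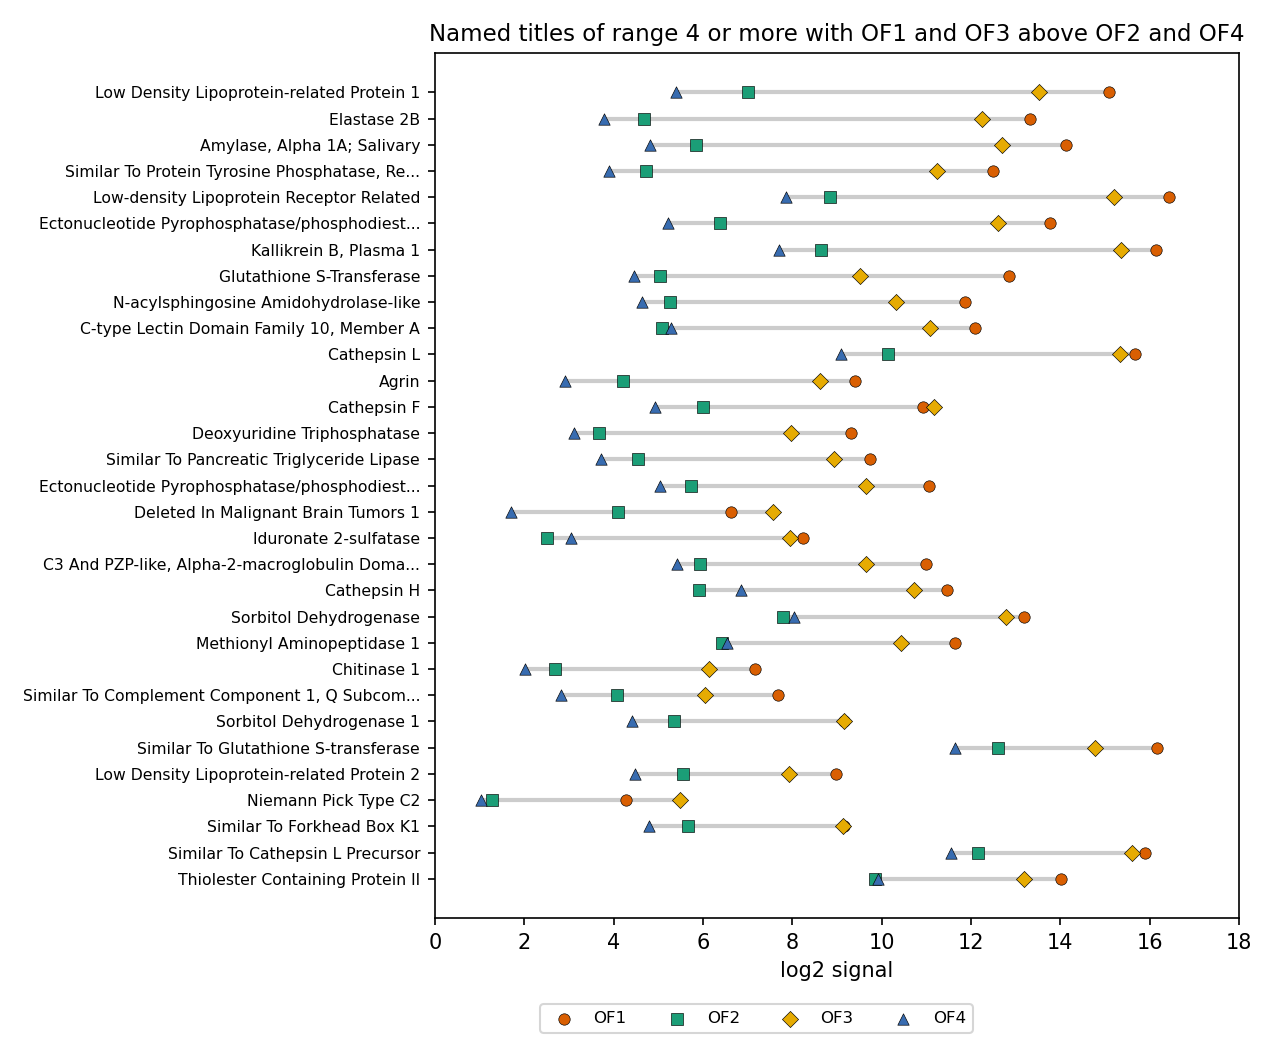
Log2 signal (horizontal axis) of the 31 titles that name a protein and have a range of 4 or more with OF1 and OF3 above OF2 and OF4, 1 symbol per animal, widest at the top. The 13 titles of the same pattern whose names identify no protein are left out. Squares and triangles (OF2 and OF4) lie left of circles and diamonds (OF1 and OF3) in every title, and some symbols overlap.

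Some digestive gland enzymes were among these titles. The list of 33 digestive gland enzyme titles held 9 wide ones (27.3% of the list, against 2.03% of all titles), of which 8 had OF1 and OF3 above OF2 and OF4 and are among the 44 titles above. The summed linear signal of the whole list, as its log2, was 17.17 (OF1), 12.70 (OF2), 16.71 (OF3) and 12.02 (OF4). A few bright titles make up most of that sum. The median level over all 33 was 2.79 (OF1), 2.85 (OF2), 3.09 (OF3) and 2.25 (OF4), which does not have the pattern. Over the whole list, OF1 and OF3 were both above OF2 and OF4, by any amount, in 11 of the 33 titles. The share by any amount was not computed over all titles, so nothing is read from that count. Several defining markers were not among the 44 titles. Similar To Amylase 1, Salivary averaged 2.41 ± 0.51 and ATAMY2; Alpha-amylase 1.75 ± 0.79. Putative Cellulase averaged 1.68 ± 0.64, the trypsin titles 1.19 ± 0.15 and 1.21 ± 0.094, and Carboxypeptidase D 1.14 ± 0.011, all near the bottom of the scale in every animal. Carboxypeptidase A1 averaged 7.20 ± 0.29 and Serine Carboxypeptidase 1 6.58 ± 0.46, with ranges of 0.61 and 1.08. Chymotrypsin-like had 3.66 (OF1), 5.67 (OF2), 0.51 (OF3) and 1.28 (OF4), highest in OF2. The part of digestive gland RNA in the 44 titles was not tested.

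The second list with a high share of wide titles was haemocyte and innate immunity, named for the circulating defence cells of snails, with 3 of 14 (21.4%). By the largest gap, it held 2 patterns. C-type Lectin Domain Family 10, Member A and Similar To Complement Component 1, Q Subcomponent, Gamma Polypeptide were high in OF1 and OF3, the complement title with 7.69 (OF1), 4.08 (OF2), 6.05 (OF3) and 2.83 (OF4). Similar To Mannose-binding Lectin Isoform 1 had 6.47 (OF1), 5.15 (OF2), 7.62 (OF3) and 0.66 (OF4). Its largest gap set OF4 below the rest, as did that of C-type Lectin Domain Family 4, Member A. In both, OF1 and OF3 were also above OF2, so the 2 patterns were not fully distinct. Collectin Sub-family Member 11 differed between animals by no more than 0.20.

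In 37 of the other wide titles 1 animal stood apart. Of the 27 in which 1 animal was high, 11 had OF1 and 10 had OF4 as that animal, and of the 10 in which 1 was low, 5 had OF4. Transcription Factor B2, Mitochondrial, needed to start transcription in mitochondria, had 0.50 (OF1), 9.19 (OF2), 9.10 (OF3) and 9.40 (OF4). OF1 was thus at the bottom of the scale while the other 3 animals were close together. NADH Dehydrogenase Fe-S Protein 7, a subunit of complex I, had 9.49 (OF1), 9.42 (OF2), 9.58 (OF3) and 1.28 (OF4), with OF4 at the bottom of the scale. Cytochrome C Oxidase Subunit VIIc, of complex IV, had 11.92 (OF1), 7.27 (OF2), 10.61 (OF3) and 2.80 (OF4). Its largest gap set OF4 below the rest, but OF1 and OF3 were also above OF2 and OF4, by 3.34. The 2 subunits were the only ones of the 86 oxidative phosphorylation titles with a range of 4 or more. That is 2.33% of the list, against 2.03% of all titles, and the list's median range was 0.57. Protein Kinase Containing Z-DNA Binding Domains, named for a fish kinase that senses foreign nucleic acid, had 8.58 (OF1), 7.69 (OF2), 8.21 (OF3) and 1.99 (OF4). Pirin, an iron-binding nuclear protein, had 8.74 (OF1), 3.54 (OF2), 8.94 (OF3) and 8.87 (OF4). The animal apart was OF4 in the kinase and OF2 in Pirin, and the others were close together. Tubulin, Alpha 3 had 2.80 (OF1), 9.23 (OF2), 5.52 (OF3) and 5.24 (OF4), the reverse of the tubulin list, in which OF2 was lowest. Among the few wide titles with another pairing, Replication Protein A1, 70kDa, which coats single-stranded DNA, had 7.15 (OF1), 10.51 (OF2), 9.43 (OF3) and 5.91 (OF4), and Replication Protein A3, 14kDa, of the same complex, 10.37 (OF1), 11.25 (OF2), 10.72 (OF3) and 11.05 (OF4). The range was 4.59 for the large subunit and 0.89 for the small one. Nutrient Reservoir, a name given to plant seed storage proteins, had 6.22 (OF1), 0.90 (OF2), 0.43 (OF3) and 0.90 (OF4), so its wide range rested on OF1 alone.

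Each animal's deviation, its value minus the mean of the 4, was then summarised as the median over all titles of a list. The distance between the highest and lowest animal in this median was 0.075 over all titles of the array, and over the 22 lists it lay between 0.052 (oxidative phosphorylation) and 1.05 (haemocyte and innate immunity). Over 86 oxidative phosphorylation titles the median deviation was -0.014 (OF1), -0.003 (OF2), 0.032 (OF3) and 0.038 (OF4), and over 81 cytosolic ribosomal proteins -0.18 (OF1), 0.014 (OF2), 0.13 (OF3) and -0.012 (OF4). All 4 animals thus stayed close together in the respiratory list. Over 14 haemocyte titles it was 0.58 (OF1), 0.17 (OF2), 0.18 (OF3) and -0.47 (OF4). The distance of 1.05 was 0.33 without OF4, 0.46 without OF1, and 0.12 with titles kept that share only a word with the list. Over 15 matrix titles it was 0.49 (OF1), 0.20 (OF2), -0.32 (OF3) and -0.28 (OF4), with OF1 highest. Over 14 tubulins it was 0.075 (OF1), -0.55 (OF2), 0.11 (OF3) and 0.068 (OF4), so that OF2 alone was low, and the distance of 0.66 was 0.14 without OF2. By this median deviation, OF4 was the highest animal over 41 M phase titles (0.18) and 18 DNA replication titles (0.36), and OF2 over 4 germ cell regulators (0.46). In the replication list the animals were 0.55 apart in it, and 0.035 apart without OF4. In the M phase list they were 0.30 apart, and 0.091 apart without OF3. The median level gave another order. It was 6.905 (OF1), 6.949 (OF2), 7.255 (OF3) and 6.757 (OF4) for replication, lowest in OF4. For M phase it was 6.703 (OF1), 6.539 (OF2), 6.165 (OF3) and 6.366 (OF4), highest in OF1. Over 33 digestive gland enzymes the median deviation was 0.17 (OF1), -0.16 (OF2), 0.20 (OF3) and -0.17 (OF4).

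**Figure D5:**
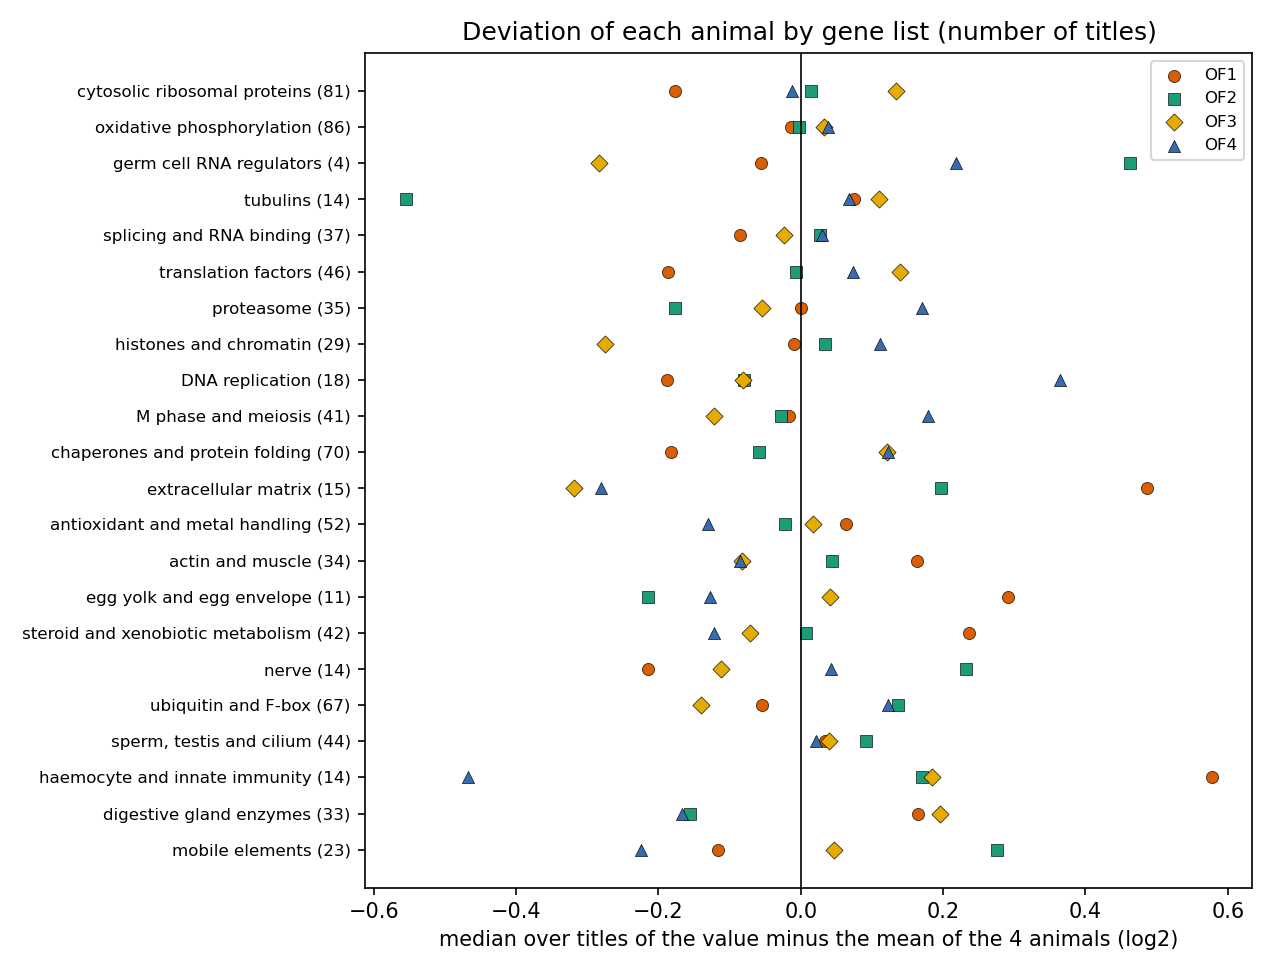
Median over all titles of each list of an animal's log2 value minus the mean of the 4 animals (horizontal axis), with the number of titles in brackets and 1 symbol per animal. The haemocyte titles are spread widest, with 0.58 in OF1 and -0.47 in OF4, and the oxidative phosphorylation titles least.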

How the data were processed

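The deposited table holds log2 values, 1 per gene title and array, that the authors condensed from the array probes. Base 2 was inferred from their range, since no source states it. Agilent Feature Extraction is the software named in the submitters' processing notes. Normalization, background treatment and the rule by which the probes of a title were condensed were not given in the sources used here. No filter was applied, and missing values were left out of a title's mean, SD and range. The number of arrays limits the precision.

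Means, SDs, ranges, ranks and correlations were computed in Python 3.11.15 with pandas 2.3.3 and numpy 2.4.6, and the alternatives with limma 3.58.1 in R 4.3.3. The range and gap sorting was tested on simulated data. Animals were grouped by the location label. The titles and lists were chosen with earlier results of these data known, so the report is a description and holds no test. Lists are search patterns on titles, and titles that share only a word with a list were left out by name after the matches were seen. Titles named are proteins, 1 title per name: the 30 highest means, the 25 widest ranges of 4 or more and the 15 widest with a mean above the median, the 3 on either side of a range of 4, the 12 smallest SDs above the upper quartile, the 4 brightest and 3 widest of each list, proteins with several titles of 1 name, and cell type markers. The text gives 111 of the 354 titles so named. These and the other titles in the text were picked with their values in view. The alternatives were quantile normalization, median centring, cyclic loess, dropping the dimmest 25% of titles, averaging titles of 1 name, leaving out each animal, ranking by the median or over complete titles, and other range, SD and gap thresholds.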

Additional observations from a re-analysis of the deposited data

Results flagged for a closer look

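Among the 115 titles named here and the 22 lists, 8 titles and 1 list had 1 animal far from the other 3, with a gap whose share of the range exceeded Dixon's critical value for 4 samples. Chance alone sets about 1 in 20 groups apart in this way, and over all titles with 4 values 258 (5.97%) were so. OF4 was apart in 4 of the titles. It was low in C-type Lectin Domain Family 4, Member A, at 14.17, in NADH Dehydrogenase Fe-S Protein 7, at 1.28, and in Protein Kinase Containing Z-DNA Binding Domains, at 1.99, and high in Cytochrome P450, Family 1, Subfamily A, at 3.58. OF1 was low in Transcription Factor B2, Mitochondrial, at 0.50, and high in Nutrient Reservoir, at 6.22. OF2 was low in Pirin, at 3.54, and high in Procollagen, Type IV, Alpha 1 / Collagen, Type IV, Alpha 1, at 8.95. In the tubulin list, the median deviation of OF2 over all titles was -0.55. The values of the other animals stand beside each title in the text above. Several of these titles were named because their ranges were wide.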

How the results depend on the processing

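The set of the 30 brightest titles shared between 28 and 30 titles with the reported set under every alternative run. The count of titles with OF1 and OF3 above OF2 and OF4 was 44 under all 3 other normalizations, and 41 with titles of 1 name averaged. It has no value with an animal left out, which ends the pairing. The count of wide titles was 84 after quantile normalization, 86 after median centring and 89 after cyclic loess. It was 182 at a range of 3, 48 at 5, 25 where the extreme animal had to lie 3 from the next, and 55 above the median level, a setting added after the data were seen. With an animal left out it lay between 56 (without OF4) and 78. The lowest correlation between animals was 0.938 without the dimmest 25% of titles, and between 0.954 and 0.969 with an animal left out, highest without OF1. Leaving out those dim titles raised list medians by construction, to 15.04 for cytosolic ribosomal proteins, 12.32 for oxidative phosphorylation, 10.33 for splicing and RNA binding, 10.82 for translation factors, 8.20 for histones and chromatin, 8.25 for DNA replication, 7.16 for M phase and meiosis, 7.58 for chaperones and protein folding, 7.69 for antioxidant and metal handling, 5.91 for actin and muscle, 6.39 for steroid and xenobiotic metabolism, 6.76 for nerve, 6.62 for ubiquitin and F-box, 4.69 for sperm, testis and cilium, 5.07 for haemocyte and innate immunity, 6.66 for digestive gland enzymes and 4.31 for mobile elements. With an animal left out, the lowest and highest list medians were 6.49 and 6.80 for M phase and meiosis, 11.60 and 11.73 for oxidative phosphorylation, 6.30 and 6.76 for chaperones and protein folding, 2.63 and 3.18 for digestive gland enzymes, 3.998 and 4.30 for ubiquitin and F-box. With titles of 1 name averaged, the median was 6.44 for M phase and 11.57 for oxidative phosphorylation. With stray titles kept, added after the data were seen, it was 5.59 for DNA replication, 11.79 for oxidative phosphorylation and 4.79 for steroid metabolism. The distance between the highest and lowest animal in a list's median deviation, over all its titles, was 0.36 for digestive gland enzymes and 2.15 without the dimmest titles. For haemocyte titles it was 1.05, 2.51 without the dimmest and 0.12 with stray titles kept. That cut uses the mean over the animals, which a title can pass through the animals where it is high. With an animal left out it lay between 0.14 (without OF2) and 0.71 for tubulins, and between 0.035 (without OF4) and 0.60 for DNA replication. Of the means of named titles, 1015 of the recomputed values stayed within 1 SD and 4 did not. That SD was over the same 4 animals, and leaving out 1 of them cannot move a mean so far. Median centring and dropping dim titles hardly change a title's mean at all. The count is therefore no measure of how stable the means are. No paired analysis was possible because only 1 group was described. Values near the bottom of the scale may be background, for which no detection calls were at hand, so the size of a wide range that includes such a value is uncertain.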

Other observations

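Some proteins stood under several titles, which were read by different probes. There were 52 such names with 107 titles, after removal of the words Similar To. The means of titles of 1 name differed by a median of 2.30, by 2 or more in 28 names and by under 1 in 13. The largest difference, 15.35, was that of elongation factor 1 gamma, and the titles for ribosomal protein S12 differed by 13.45. For proteasome subunit alpha type 3 the difference was 9.996. A low title of a protein thus does not show that the protein's other titles are low.

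Levels also went with the kind of name. The 27 titles named after rice genomic clones (OSJNB) had a median of 1.99, with 51.9% under 2, against 15.97% of all titles. Titles that open with the word Putative had a median of 2.09 (54 titles). The 83 titles named by predicted mosquito proteins had a median of 6.79, and 25.3% of them reached 10 or more, against 15.7% of all titles.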
